A study of Mus musculus with 8 samples.

Results

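The miR-34 family is a small group of miRNAs made from 3 mouse hairpins, and its reads were followed here in hepatocytes and in the extracellular vesicles (EVs) that they release. The members were chosen by name, with earlier results of these data known. They are mmu-miR-34a-5p, mmu-miR-34b-5p, mmu-miR-34b-3p, mmu-miR-34c-5p and mmu-miR-34c-3p (written below without the species prefix), 5 of the 1978 mouse mature miRNAs in the count table. The opposite strand of the first hairpin, miR-34a-3p, is not a member and was followed beside them. All 5 members had reads in at least 1 cell library, and 1 of the 5, miR-34a-5p, had reads in EVs.

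The small RNA came from 3A cells, a nontumorigenic line of mouse hepatocytes, and from EVs purified by centrifugation, filtration and ultracentrifugation of the medium that the cells had conditioned for 72 h with EV-depleted serum. Cells of the control groups (cell shCTR and EV shCTR) carried a scrambled shRNA, and those of the knockdown groups (cell shPCBP2 and EV shPCBP2) carried an shRNA against PCBP2, an RNA-binding protein, in a retroviral vector under puromycin selection. The 8 libraries form 4 groups of 2 biological replicates each. The sources used here do not give whether replicates came from separate infections, and the loss of PCBP2 itself cannot be read from small RNA. The study asks whether PCBP2 holds miRNAs inside the cell, so the comparison of interest for each member is its EV/cell ratio, with and without the knockdown.

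Each library held 26391248 to 38166798 counted reads, and most of them were the nematode miRNA cel-miR-39, a synthetic spike-in added to every sample (57.4% to 66.9% of reads in cells and 97.6% to 98.4% in EVs). Mouse miRNAs had 8745848 to 12732173 reads per cell library and 503070 to 687592 per EV library. The hepatocyte marker miR-122-5p was low in cells, at 356 to 485 reads or 0.00357% to 0.00415% of mouse reads, and held a larger share in EVs, at 795 to 2327 reads or 0.144% to 0.372%. The 5 blood cell markers examined (miR-451a, miR-486a-5p, miR-142a-3p, miR-142a-5p and miR-223-3p) took 0.00072% to 0.00154% of mouse reads in cells, with 3 or 4 of them at 0 in each cell library, and 5.99% to 6.99% in EVs. miR-451a and both miR-142a strands had no reads in any cell library. The share of EV reads that did not come from the cultured cells was not tested.

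Members of the miR-34 family are direct transcriptional targets of p53, the tumour suppressor that responds to DNA damage and other stress. In turn they restrain translation of cell cycle, survival and metastasis genes, among them cyclin-dependent kinases, Met and Bcl2, and miR-34a also targets the deacetylase Sirt1. A hairpin is cut by Drosha and Dicer into a 5p and a 3p strand, Argonaute usually keeps one of them, and bases 2 to 8 of the kept strand, its seed, pair with target mRNAs.

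The mature sequences are shown because they separate the family by seed and by strand. They are the RefSeq sequences on GRCm38.p6, 5′ to 3′, with the seed in capitals, and 4 of the 5 members had an entry. miR-34c-5p had none, so its seed was not compared. miR-34a-3p and the miR-449 relatives are printed for comparison.
miR-34a-5p: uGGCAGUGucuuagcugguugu
miR-34b-5p: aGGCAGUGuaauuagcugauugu
miR-449a-5p: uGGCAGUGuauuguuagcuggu
miR-449c-5p: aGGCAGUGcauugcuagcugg
miR-34b-3p: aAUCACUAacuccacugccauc
miR-34c-3p: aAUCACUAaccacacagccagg
miR-34a-3p: aAUCAGCAaguauacugcccu

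The first 4 sequences share the seed GGCAGUG, and miRNAs with 1 seed can pair with overlapping sets of target sites. miR-34b-3p and miR-34c-3p share the seed AUCACUA, their first 10 bases and 17 of 22 positions. miR-34a-3p has a seed of its own, AUCAGCA. The study calls AUUA or AUUG the core of a motif for retention in the cell (the CELL motif), and both were searched on the mature strand only, as printed. It reports that PCBP2 binding also needs a second motif, hEXO, which the protein SYNCRIP binds. That motif and an extended form of the CELL motif were not searched here. miR-34b-5p held AUUA from base 11 and AUUG from base 19, and miR-449a-5p and miR-449c-5p held AUUG from base 10. Neither run of letters was in miR-34a-5p, miR-34a-3p, miR-34b-3p or miR-34c-3p, and miR-34c-5p could not be searched. Of 1679 mature mouse sequences in the table, 149 (8.87%) held one or the other.

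The hairpin of miR-34a lies on chromosome 4 at chr4:150068454-150068555 on the plus strand of GRCm38.p6. Its 5p strand is at chr4:150068473-150068494 and its 3p strand at chr4:150068517-150068537. GENCODE places an unclassified transcript, Gm37795, over the end of this hairpin on the same strand, starting at 150068539. The hairpins of miR-34b (chr9:51103562-51103645) and miR-34c (chr9:51103034-51103110) are on the minus strand of chromosome 9, with 451 bases between them. The miR-34b strands are at chr9:51103610-51103632 (5p) and chr9:51103574-51103595 (3p), and miR-34c-3p is at chr9:51103044-51103065. Both hairpins lie inside the span of Btg4 on the opposite strand and overlap none of its exons.

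miR-34a-5p made up nearly all of the family. The cells gave 36122 and 31438 of its reads in the shCTR replicates, and 31555 and 41156 in the shPCBP2 replicates. The EVs gave 434 and 356 of its reads in shCTR, and 231 and 414 in shPCBP2. Every EV count was below every cell count, and the shRNA groups overlapped within each compartment. Relative to the spike-in, 141 of 180 tested miRNAs (78.3%) likewise had every EV library below every cell library.

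miR-34c-5p, the main strand of the miR-34c hairpin, had 211 and 73 reads in the shCTR cells, 163 and 217 in the shPCBP2 cells and 0 in every EV library. Its lowest cell count, in shCTR replicate 2, stood apart from the other 3. miR-34c-3p had 27 and 0 reads in the shCTR cells and 5 and 0 in the shPCBP2 cells. miR-34b-3p had 5 reads, all in cell shCTR replicate 1, and miR-34b-5p had 2 reads, both in cell shPCBP2 replicate 2. None of these 3 strands had reads in EVs.

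In cells, miR-34a-5p took 99.332% and 99.768% of the reads of the 5 members in shCTR, and 99.470% and 99.471% in shPCBP2. For each read of miR-34c-5p there were 171 and 431 reads of miR-34a-5p in the shCTR cells, and 194 and 190 in the shPCBP2 cells. By mean cell level, miR-34a-5p ranked 45 of the 772 miRNAs with reads in cells. miR-34c-5p ranked 208, miR-34c-3p 476, miR-34b-3p 724 and miR-34b-5p 759. The last 3 are each absent from at least 2 of the 4 cell libraries, and their order rests on a few reads. Counts were compared between miRNAs without a correction for how well the library kit captures each sequence.

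**Figure D1:**
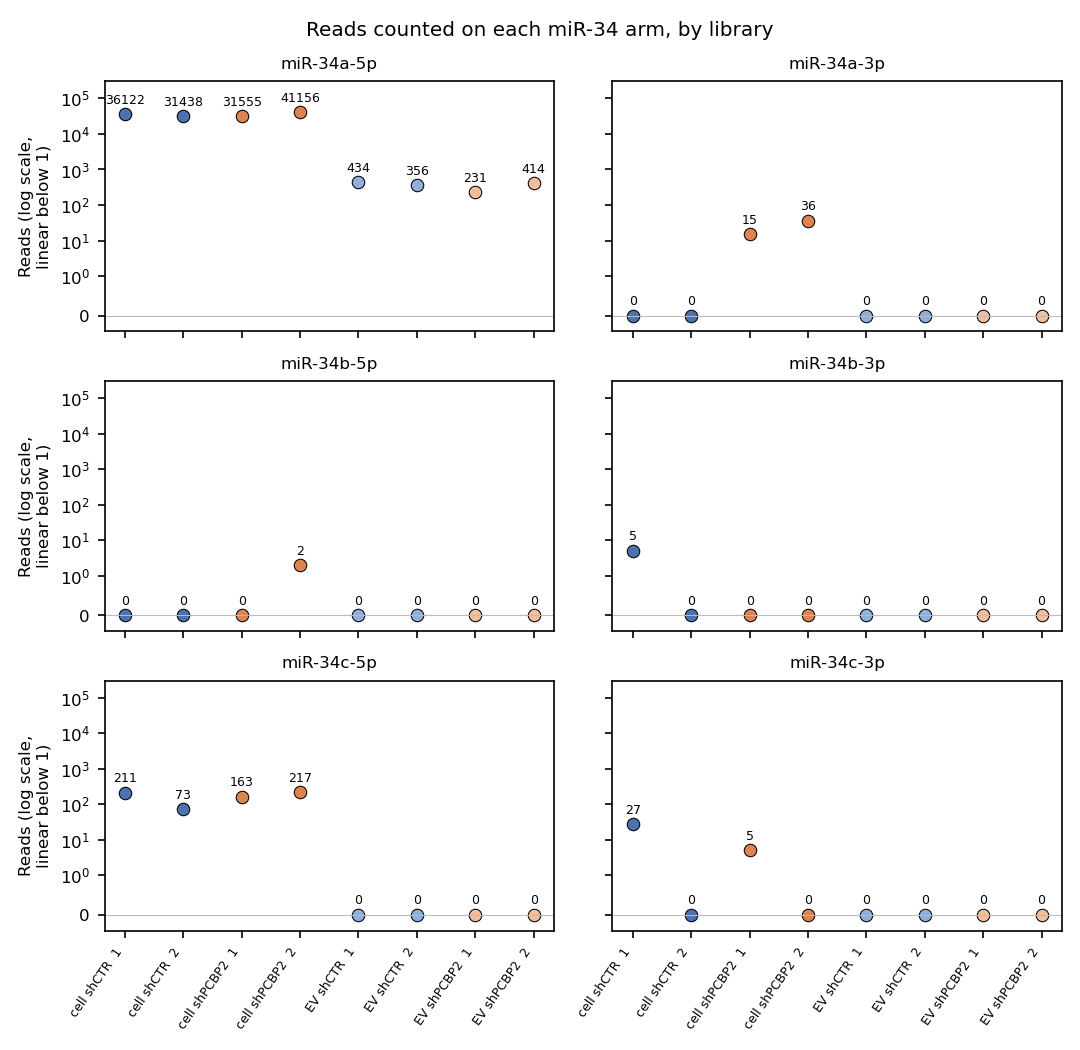
Reads counted on each strand of the miR-34 hairpins (vertical axis, log scale above 1 read and linear below) in the 8 libraries (horizontal axis, cell libraries dark and EV libraries pale, shCTR blue and shPCBP2 orange). miR-34a-5p is the only strand with EV reads, 231 to 434, and miR-34c-5p is the only other strand with reads in all 4 cell libraries.

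To compare cells with EVs, counts were expressed per 1000000 reads of the spike-in, which stood for a constant addition to each sample. The amount of cell or EV material behind each addition is not given in the sources used here, so the size of the EV/cell ratio includes how much of each was used. miR-34a-5p stood at 2027 and 1998 per 1000000 spike-in reads in cell shCTR (mean 2012 ± 20.4, SD, n = 2) and at 1788 and 2310 in cell shPCBP2 (2049 ± 369, n = 2). In EVs it stood at 15.6 and 13.7 in shCTR (14.65 ± 1.38, n = 2) and at 6.15 and 13.6 in shPCBP2 (9.883 ± 5.28, n = 2). EV shPCBP2 replicate 1 was the lowest library, while replicate 2 was close to the control EVs. Whether less miRNA per vesicle or fewer vesicles lie behind a lower EV level cannot be told apart in these libraries. The study counted EVs per cell separately and reports no effect of the PCBP2 knockdown on EV production. Those counts were not analysed here.

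In shCTR, miR-34a-5p was 137-fold lower in EVs than in cells, a log2 difference of -7.10 (SE 0.51, 95% interval -8.34 to -5.86, adjusted p = 3e-05, edgeR's quasi-likelihood test, Benjamini-Hochberg adjusted). In shPCBP2 it was 207-fold lower, a log2 difference of -7.70 (SE 0.52, interval -8.97 to -6.42, adjusted p = 2.33e-05, same test). Most tested miRNAs were also lower in EVs, 107 of 180 (59.4%) in shCTR and 108 of 180 (60.0%) in shPCBP2, so the direction alone does not set miR-34a-5p apart. Its position among them does describe it. Counted from the lowest EV/cell ratio, it was number 18 of 180 in shCTR, where the median log2 ratio was -4.93, and number 10 of 180 in shPCBP2, where the median was -4.90. Relative to the median of the 180 its log2 ratio was thus -2.17 and -2.80. All 180 had reads in at least 2 EV libraries, so miRNAs never read in EVs were not ranked. Without a filter, over 800 miRNAs, miR-34a-5p was -1.33 from the median in shCTR and -2.07 in shPCBP2. The shPCBP2 values over the 180 changed with the EV libraries kept. Without EV shPCBP2 replicate 1 miR-34a-5p was 150-fold lower, number 39 and at -2.15 from the median, and without replicate 2 it was 333-fold lower, number 25 and at -3.54. Its rank moved away from the lowest either way, also where the ratio itself fell, and the reason was not tested.

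The share of mouse miRNA reads needs no spike-in. miR-34a-5p took 0.284% and 0.269% of mouse reads in cell shCTR, and 0.361% and 0.326% in cell shPCBP2. In EVs it took 0.0631% and 0.0643% in shCTR, and 0.0373% and 0.0823% in shPCBP2. Every cell library was above every EV library in this share, as for 44 of the 180 tested miRNAs (24.4%). Scaled by the total mouse count, the log2 difference between EVs and cells was -2.12 in shCTR and -2.52 in shPCBP2. With trimmed mean of M-values (TMM) factors it was -2.34 and -3.11, and with median-of-ratios factors -2.33 and -2.90. In shCTR, 22.2%, 20.0% and 17.8% of the 180 miRNAs were called lower in EVs with TMM, median-of-ratios and total count scaling. The adjusted p of miR-34a-5p was at most 0.00591 in shCTR and 0.00218 in shPCBP2 over the 18 alternatives run for each. By count, miR-34a-5p ranked 39 to 49 among the 466 to 599 miRNAs with reads in a cell library, and 89 to 123 among the 183 to 202 with reads in an EV library.

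**Figure D2:**
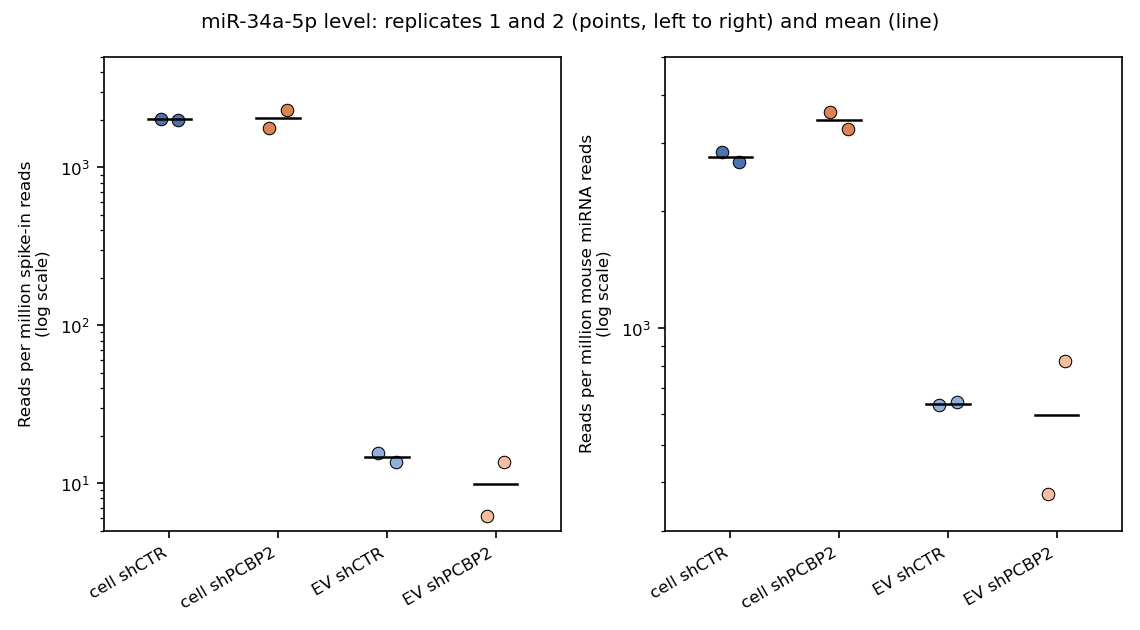
Level of miR-34a-5p in each library (points, replicate 1 on the left) and group mean (line), per 1000000 spike-in reads (left) and per 1000000 mouse miRNA reads (right), both on log axes. All 4 cell libraries lie above all 4 EV libraries on both scales, and the 2 EV shPCBP2 libraries, 6.15 and 13.6 per 1000000 spike-in reads, lie farther apart than the 2 EV shCTR libraries.

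For miR-34c-5p the EV libraries set a limit only. Its level in cells was 11.84 and 4.64 per 1000000 spike-in reads in shCTR (8.24 ± 5.09, SD, n = 2), and 9.238 and 12.18 in shPCBP2 (10.71 ± 2.08, n = 2). By counting error alone, a count of 0 allows up to 3 reads per library. Under that assumption miR-34c-5p was at least 73.8-fold lower in EVs than in cells in shCTR and at least 120-fold lower in shPCBP2. The first limit was 41.6-fold without cell shCTR replicate 1 and 106-fold without replicate 2, and the second ran from 103-fold to 136-fold with a library left out. Both limits are smaller than the fitted differences of miR-34a-5p. At the EV/cell ratio of miR-34a-5p, 1.78 and 1.46 reads of miR-34c-5p would have been counted in the EV shCTR libraries, and 1.21 and 2.16 in the EV shPCBP2 libraries. Each is below the 3 reads that a count of 0 allows, so no single EV library could tell such a ratio from a lower one. The EV libraries were not pooled, and whether they differ from that ratio together was not tested. Of the 372 miRNAs with reads in all 4 cell libraries, 157 (42.2%) had no reads in any EV library. Counts of 1 to 9 were rare in EVs, 15 of 761 counts above 0 (1.97%), against 377 of 2179 (17.3%) in cells. Counts of 1 to 40 were rare there too, 4 to 10 per EV library against 137 to 290 per cell library. Whether a count of 0 in EVs can stand for more than 3 reads was not tested, and the limits would then be smaller. For miR-34b-5p, miR-34b-3p and miR-34c-3p, with 0 to 27 cell reads per library, no EV/cell value was taken.

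**Figure D3:**
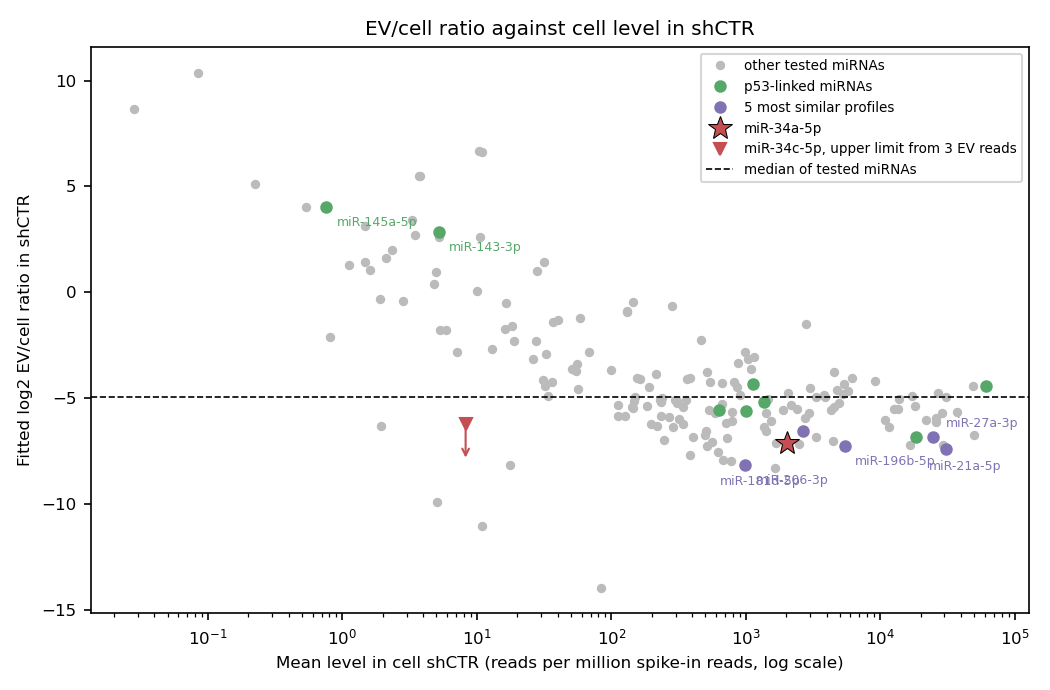
Fitted log2 EV/cell ratio in shCTR (vertical axis) against mean level in cell shCTR (horizontal axis, reads per 1000000 spike-in reads, log scale) for the 180 tested miRNAs. miR-34a-5p (star) lies at -7.10, below the dashed median of -4.93, and the triangle and arrow give the upper limit for miR-34c-5p, which was not among the tested miRNAs.

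The difference in the EV/cell ratio of miR-34a-5p between shPCBP2 and shCTR did not pass the test. The fitted ratio was lower in shPCBP2 than in shCTR by a log2 difference of -0.59 (SE 0.55, interval -1.94 to 0.75, unadjusted p = 0.322, adjusted p = 0.992, edgeR's quasi-likelihood test, Benjamini-Hochberg adjusted). By this test 4 of 180 miRNAs (2.22%) were called. The interval holds both no difference and a fall of 1.94 on the log2 scale. The value depended on which EV shPCBP2 library was kept, since it was -0.13 without EV shPCBP2 replicate 1 and -1.28 (adjusted p = 0.141) without EV shPCBP2 replicate 2. The adjusted p ran from 0.141 to 1.0 over 17 alternatives.

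In EVs alone, miR-34a-5p differed between shPCBP2 and shCTR by a log2 value of -0.57 (SE 0.39, interval -1.52 to 0.387, adjusted p = 0.564, same test), where 13 of 180 miRNAs (7.22%) were called. The median of the 180 was -0.54. Without EV shPCBP2 replicate 1 the value of miR-34a-5p was -0.11 beside a median of -0.60, and without replicate 2 it was -1.25 (adjusted p = 0.0669, same test) beside a median of -0.44, so the left-out libraries placed it on opposite sides of the median.

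In cells, the spike-in scaled level of miR-34a-5p was similar in both groups, with a log2 difference of 0.03 (SE 0.24, interval -0.55 to 0.602, adjusted p = 0.996, edgeR's quasi-likelihood test on the 4 cell libraries). In this fit 4 of 574 cell-detected miRNAs (0.697%) were called, all of them lower, and the median of the 574 was -0.48. In the fit of all 8 libraries edgeR called 0 of 180 (0.0%) in cells, with 25 at an unadjusted p under 0.05, and DESeq2 called 18. miR-34a-5p thus stood 0.50 log2 units above the median miRNA while the difference in its own level per spike-in read did not pass the test.

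The call in cells turned with the scaling. With TMM factors, which set the median close to 0 (-0.00382), miR-34a-5p was higher in shPCBP2 by 0.51 (SE 0.09, adjusted p = 0.0189, edgeR's quasi-likelihood test), and with median-of-ratios factors by 0.53 (SE 0.08, adjusted p = 0.0166). Both calls belong to the fit of the 4 cell libraries and are lost in the fit of all 8, where the values were 0.52 (adjusted p = 0.999) and 0.43 (adjusted p = 1.0) by the same test. Scaled by total mouse reads it was higher by 0.31 in the fit of 4 (adjusted p = 0.116, edgeR's quasi-likelihood test). Under TMM 13 of 574 miRNAs (2.26%) were called higher, under median-of-ratios factors 8 (1.39%) and under the total count 5 (0.871%). Scaling moves all miRNAs together, so its distance from the median of all tested miRNAs, 0.50 to 0.52, was bound to stay nearly the same. Both shPCBP2 shares of mouse reads, 0.361% and 0.326%, were above both shCTR shares, 0.284% and 0.269%, as for 95 of 574 miRNAs (16.6%). The scalings differ in the level given to all miRNAs, and these libraries cannot tell apart a lower yield of mouse miRNA from a larger addition of spike-in in the shPCBP2 cells.

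**Figure D4:**
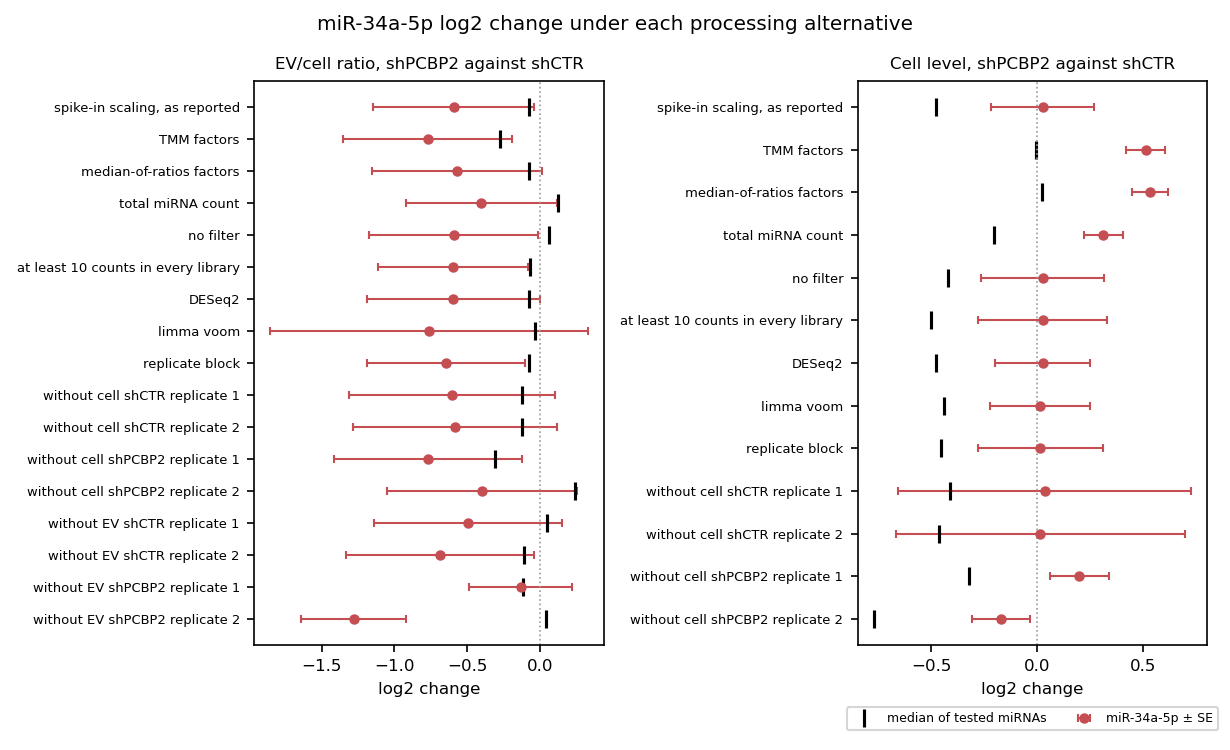
Log2 change of miR-34a-5p between shPCBP2 and shCTR (points with standard error) and median of all tested miRNAs (vertical bars) under each processing alternative, for the EV/cell ratio (left) and for cells (right). The EV/cell change runs from -1.28 to -0.13, with both ends set by leaving out an EV shPCBP2 library, and the change in cells is near 0 with the spike-in and 0.51 to 0.53 with TMM and median-of-ratios factors.

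The difference of miR-34c-5p between the cell groups did not pass the test, with a log2 value of 0.38 (SE 0.58, interval -1.0 to 1.75, adjusted p = 0.839, edgeR's quasi-likelihood test). Its counts overlapped between the groups, and the sign depended on the low library, since the value was -0.145 without cell shCTR replicate 2 and 1.21 without cell shCTR replicate 1. miR-34c-3p had a fitted value of -2.36 (SE 2.75, adjusted p = 0.763, same test) that came from a single library, as it was 4.35 without cell shCTR replicate 1. miR-34b-5p and miR-34b-3p had reads in 1 library each and were not tested.

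Strand use on the hairpins was followed by the share of reads from each strand, with 95% Wilson intervals that cover counting error only. On the miR-34a hairpin the 3p strand had 0 reads beside 36122 and 31438 of the 5p strand in the shCTR cells. At 3 reads per library this allows shares of up to 0.00831% and 0.00954%, and the Wilson intervals reach 0.0106% and 0.0122%. In the shPCBP2 cells it had 15 and 36 reads, shares of 0.0475% (0.0288 to 0.0784) and 0.0874% (0.0631 to 0.121). Both shPCBP2 libraries were thus above the limits of both shCTR libraries. A pattern of 0 reads in both shCTR and some reads in both shPCBP2 cell libraries was found for 34 of 574 miRNAs (5.92%), and the reverse for 9 (1.57%). Against the limit of 3 reads per library, miR-34a-3p was at least 8.0-fold higher in shPCBP2 cells. It was tested only because of its reads in that group, as were the 34 miRNAs of the same pattern, and its difference did not pass the test (adjusted p = 0.247, range 0.179 to 0.664 over 12 alternatives, edgeR's quasi-likelihood test). The bound was 11.3-fold without cell shPCBP2 replicate 1 and 4.74-fold without replicate 2. Low counts were unevenly recorded, as cell shCTR replicate 2 had 11 miRNAs with 1 to 9 reads, replicate 1 had 86, and the shPCBP2 cells had 141 and 139. Their part in the result was not tested. In EVs miR-34a-3p had 0 reads, which at 3 reads per library allows shares of up to 0.691% to 1.3%. The Wilson intervals reach 0.877% to 1.64%, so this says little about the strands there.

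On the miR-34c hairpin the 5p strand led. It took 88.655% (84.0 to 92.1) and 100% of the reads in the shCTR cells, and 97.024% (93.2 to 98.7) and 100% in the shPCBP2 cells. In each group replicate 1 had 3p reads and replicate 2 had none, so the spread within a group covered the difference between the groups. The few reads of the miR-34b hairpin, 5 on 3p and 2 on 5p in different libraries, give no strand preference.

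The miR-449 miRNAs, of which miR-449a-5p and miR-449c-5p carry the seed of miR-34a-5p and miR-34b-5p, are known from multiciliated cells. Of their 5 strands in the table, miR-449a-5p alone had reads. The cells gave 7 and 0 reads for shCTR, then 0 and 10 for shPCBP2, and the EVs gave 0 and 61 for shCTR, then none for shPCBP2. Each group with reads had them in 1 of its replicates. In cells its difference between shPCBP2 and shCTR did not pass the test (0.49 log2 units, SE 2.63, adjusted p = 0.988, edgeR's quasi-likelihood test). Among the printed sequences with this seed, miR-34a-5p had the most reads in every library.

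Other miRNAs linked to p53, through transcription by p53, processing with p53 or targeting of its pathway, were taken from a list of 14, of which 13 are in the table and 8 had enough reads for the comparison of EVs with cells. In shCTR, 6 of the 8 were called lower in EVs and 2 higher, where 59.4% of all tested were called lower and 6.67% higher, and the median log2 ratio was -4.80 beside -4.93 for all 180. In shPCBP2 it was again 6 lower and 2 higher, beside 60.0% lower and 7.78% higher of all tested, with medians of -5.09 and -4.90. The miRNAs called higher were miR-143-3p (2.85, adjusted p = 0.046) and miR-145a-5p (4.03, adjusted p = 0.0206, both in shCTR by edgeR's quasi-likelihood test), which are made by one locus and are markers of mesenchymal cells. miR-143-3p had 138 and 42 reads in the shCTR cells and 1445 and 601 in the EVs. miR-145a-5p had 10 and 15 reads there and 441 and 235 in the EVs. The call of miR-143-3p was lost without any 1 of the 4 cell libraries or without EV shCTR replicate 1 (adjusted p up to 0.205, same test). That of miR-145a-5p was lost without either shCTR cell library or EV shCTR replicate 1 (up to 0.139). The calls held in 9 of 17 and 12 of 16 alternatives.

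The lower calls of the list depended on the spike-in. With TMM or median-of-ratios factors or the total mouse count, 1 of the 8 was lower in shCTR, miR-194-5p, where 22.2%, 20.0% and 17.8% of all tested were lower, and miR-34a-5p was lower under all 3. In shPCBP2, 3, 2 and 2 of the 8 were lower under these scalings, beside 25.0%, 22.8% and 19.4% of all tested. miR-194-5p, a hepatocyte and gut miRNA, had 342726 and 280114 reads in cell shCTR and 4749 and 3938 in EV shCTR, and its log2 ratio of -6.84 was close to that of miR-34a-5p. miR-16-5p, whose processing p53 is reported to promote, had 1102370 and 957862 reads in cell shCTR and 87756 and 68162 in EV shCTR, and fell by 4.41 on the log2 scale. Its direction turned with the scaling, to 0.57 higher in EVs by the total mouse count.

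Few of the list differed between shPCBP2 and shCTR. For the EV/cell ratio 0 of the 8 were called by edgeR (2 at an unadjusted p under 0.05, and 1 by DESeq2), at a median of 0.10 beside -0.08 for all tested, and in the fit of cell libraries 0 of 12 were called by edgeR (3 at an unadjusted p under 0.05) or DESeq2, with 11 values below 0 and a median of -0.59 beside -0.48. In the fit of all 8 libraries edgeR called 0 of the 8 in cells (1 at an unadjusted p under 0.05) and DESeq2 called 1 lower, miR-145a-5p. That miRNA had 10 and 15 reads in the shCTR cells and 0 in both shPCBP2 cell libraries. It passed the filter in cells only through shCTR, so the direction of its difference there was set by the filter. The 2 EV/cell ratios at an unadjusted p under 0.05 were those of miR-145a-5p and miR-192-5p. Each passed the filter of 1 compartment only through shCTR. With TMM, median-of-ratios or total count scaling 1 of the 12 was called higher in cells, miR-107-3p, and with at least 10 counts required in every library 2 of 9 were called lower, miR-200c-3p and miR-203-3p, beside 30 of all 336 (8.93%). Without cell shPCBP2 replicate 2, 5 were called lower, miR-15a-5p, miR-22-3p, miR-192-5p, miR-194-5p and miR-200c-3p, beside 119 of all 574 (20.7%). In EVs 1 of the 8 was called, beside 13 of all 180 (7.22%). It was miR-192-5p, which was lower in shPCBP2 by the same test (adjusted p = 0.0333), with 1058 and 62 reads in the control EVs and none in the knockdown EVs. It entered the test only through the EV group where it had reads, so the direction of its difference was set by the filter. That call was lost without any 1 of the 4 cell libraries or without either EV shPCBP2 library, and it held in 7 of 16 alternatives, with an adjusted p of up to 0.186 by the same test.

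The profile of miR-34a-5p over the 8 libraries was compared with those of the other 179 tested miRNAs by the root mean square difference of centred log2 levels, as a description. The nearest was miR-27a-3p at 0.221 log2 units, followed by miR-196b-5p at 0.352, miR-21a-5p at 0.381, miR-181d-5p at 0.396 and miR-206-3p at 0.437. The sixth was at 0.438 and the median miRNA at 2.12, so the fifth place is not set apart from the next. miR-27a-3p, which is made with miR-23a and miR-24, had 447002 and 381673 reads in the control cells and 327450 and 487261 in the knockdown cells. Its reads in EVs were 6743 and 4900 for shCTR, against 4051 and 5757 for shPCBP2. Its shRNA groups overlapped in both compartments. All 5 had lower EV levels per spike-in read in both shRNA groups, with log2 EV/cell ratios in shCTR from -8.16 (miR-206-3p) to -6.54 (miR-181d-5p). That direction was set by the choice of profiles like that of miR-34a-5p.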

How the data were processed

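Small RNA from 3A cells and their EVs was analysed in 8 libraries. Libraries were made by the authors with a NEXTFLEX small RNA kit and sequenced in paired-end mode. Reads were trimmed and filtered, the forward reads were aligned with mirPRo and NovoAlign to miRBase hairpins plus the spike-in, and the authors deposited raw counts per mature miRNA, with counts of 1000000 or more printed to 6 significant digits. Groups follow the sample titles, whose shPCBP2 replicate numbers differ from those in the descriptions. The members and lists were chosen with earlier results of these data known. Whether the spread between replicates is technical in part was not tested.

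Tested were the 180 miRNAs detected by 1 read in 2 libraries of each compartment and, within cells, the 574 detected in 2 cell libraries, with edgeR 4.0.16 in R 4.3.3 (limma 3.58.1). The quasi-likelihood test took the spike-in count as library size, with a prior count of 0.125 and Benjamini-Hochberg adjustment over all tested miRNAs at 0.05. The first fit held terms for compartment, shRNA and their interaction over all 8 libraries, with 4 residual degrees of freedom, and the second held shRNA over 4 libraries, with 2. Standard errors were derived from the F statistic and are approximate. Intervals of shares are Wilson intervals at 95%, and a count of 0 was taken to allow 3 reads per library. The intervals and this limit cover counting error only, and the sources used here do not say whether reads carried molecular identifiers. Near-identical miRNAs may share reads. An exact test of 2 libraries against 2 could not go below p = 0.333 (two-sided) and was not used.

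Named miRNAs were the members, miR-34a-3p, the miR-449 and p53-linked lists, the markers, and the 5 tested miRNAs with the smallest root mean square difference from miR-34a-5p in centred log2 levels (pseudocount of 1 count). The fits were tested on simulated data with known changes, but at a lower dispersion than in these data. The common dispersion here was 0.693 over 8 libraries and 0.602 over the 4 cell libraries. How the fits recover changes at that dispersion was not tested. Alternatives were TMM, median-of-ratios or total count scaling, a filter of 10 counts per library or none, DESeq2 1.42.0, limma voom, the replicate number as a block, only the libraries compared, and each library left out. A crossed block was chosen only after seeing the data. Sequences and positions came from RefSeq and GENCODE on GRCm38.p6. Remaining steps used scipy 1.17.1, numpy 2.4.6 and pandas 2.3.3 under Python 3.11.15.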

Additional observations from a re-analysis of the deposited data

How the results depend on the processing

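The lower EV level of miR-34a-5p kept its direction and its call in both shRNA groups under all 18 alternatives, from -7.20 to -2.12 on the log2 scale in shCTR and from -8.38 to -2.52 in shPCBP2, with the upper ends set by scaling without the spike-in. Its EV/cell change with the knockdown was not called under any of 17 alternatives, nor its change in EVs under any of 18. In the fit of 4 cell libraries its change was called with TMM (0.51) and median-of-ratios factors (0.53), while in the fit of 8 it was called under none of 18 alternatives, and over left-out libraries it ran from -0.17 to 0.20 in both fits, below 0 without cell shPCBP2 replicate 2. For miR-34c-5p left-out libraries gave -0.15 to 1.21 and for miR-34c-3p -6.71 to 4.35, and the share of miR-34c reads on the 5p strand in cell shCTR, 91.3% over the pooled reads, ran from 88.7% to 100%.

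The counts of called miRNAs moved more. The EV/cell ratio had 4, which became 13 with TMM factors, 2 with median-of-ratios factors, 14 with DESeq2, 0 with limma voom or with a minimum of 10 counts per library, and 0 to 11 with a library left out. In EVs 13 became 7 without a filter or with at least 10 counts, 27 with DESeq2, 4 with voom, 1 with only the libraries compared, and 1 to 21 with a library left out. In cells within the fit of 8 libraries 0 (25 at an unadjusted p under 0.05) became 5 with TMM, 1 with median-of-ratios, 3 with the total count, 8 with at least 10 counts, 18 with DESeq2, 16 with voom and 39 with only the libraries compared. In the fit of cell libraries 4 became 29 with TMM, 24 with median-of-ratios, 34 with the total count, 32 without a filter, 30 with at least 10 counts, 43 with DESeq2, 16 with voom, and 5 to 120 with a library left out. EVs against cells had 119 in shCTR, which became 82 with TMM, 76 with median-of-ratios, 75 with the total count and 294 without a filter. In shPCBP2 there were 122, which became 87 with TMM, 86 with median-of-ratios, 89 with the total count and 294 without a filter. The cause was not tested.

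The replicate numbers are shared between groups, but deviations of same-numbered cell libraries correlated at -0.465, those of EV libraries at -0.102 and the other pairs at -0.0654 to 0.0444, so the numbers were not taken to pair samples. This check and the block rest on the numbers of the titles, and the descriptions number the shPCBP2 libraries otherwise. With the replicate number as a block, called miRNAs were 1 for the EV/cell ratio, 2 in EVs and 25 in the fit of cell libraries, and the EV/cell change of miR-34a-5p was -0.64, while miR-143-3p and miR-145a-5p were no longer called higher in shCTR EVs. With crossed numbers the counts were 0, 2 and 17.

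With 2 libraries per group, an EV shPCBP2 pair that differs in miR-34a-5p, and 231 to 434 EV reads of it, a modest change of the EV/cell ratio could not be seen. Members below miR-34c-5p could not be compared between groups at this depth.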
